A study of Phyllostachys violascens with 6 samples.

Results

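The 5 unigenes described here carry the names of enzymes of monolignol synthesis, HCT, CCoAOMT, CCR, F5H and CAD, in the bamboo Phyllostachys violascens cv. Viridisulcata. They were taken by identifier, 1 unigene for each enzyme, out of 63776 unigenes in the deposited table, and all 5 passed the filter on low counts that left 31936 unigenes for testing. A unigene is a group of contigs assembled from the reads without a reference genome, so none has a chromosome position, and the enzyme names rest on the authors' KEGG annotation. Other unigenes of the same enzyme families were not examined, and no sequence of the 5 is shown.

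RNA was read from 2 tissues of the longest internode of wild-type plants of this cultivar, the yellow culm with 3 libraries and the green sulcus, the groove of the internode, with 3 libraries. The labels give no treatment and no plant age. The paper describes 3 biological replicates of uniform size, all sampled on the same date. The libraries of each tissue are numbered 1, 2 and 3. In the paper's qRT-PCR figure such numbers stand for different bamboos. Whether a culm and a sulcus RNA library with the same number share a plant is not stated. The total count lay between 16405396 and 22505338 per library. The tissue labels were checked with 12 unigenes that the study, choosing on these libraries, listed under photosynthesis. Their summed level was 1043, 1382 and 2398 CPM (counts per 1000000 counts of the library) in culm replicates 1, 2 and 3, against 5919, 4985 and 2963 CPM in sulcus replicates 1, 2 and 3. It was thus lower in the yellow culm in 3 of 3 same-numbered pairs, and the sulcus held 5.68, 3.61 and 1.24 times the culm level in pairs 1, 2 and 3. None of the 12 was at 0 in any library. As the 12 were chosen on these libraries, their lower level in culm is no independent check of the labels.

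Monolignols are the alcohols that plants join into lignin, the polymer that stiffens and waterproofs the walls of fibers and vessels, and grass stems lay it down as an internode matures. The route starts from phenylalanine and runs through p-coumaroyl-CoA, a compound that flavonoid synthesis also uses. HCT moves the p-coumaroyl group from CoA to shikimate, which opens the branch to lignin. CCoAOMT methylates caffeoyl-CoA to feruloyl-CoA, and CCR reduces such CoA esters to aldehydes. F5H, a cytochrome P450 of the CYP84A family, adds the hydroxyl group that leads to syringyl units, and CAD reduces the aldehydes to the alcohols that are exported to the wall. In a bulk tissue sample, fewer cells of a type and less RNA per cell cannot be told apart.

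HCT, CCR and F5H were higher in the libraries with replicate number 3 than in those with number 1, CCoAOMT was lower, and CAD was close to level. These differences appeared in the culm and in the sulcus alike, and for each of the 5 unigenes except CCR the tissues lay close together within a pair of the same number. F5H had the widest range of the 5, a fold of 11.5 between its highest and its lowest library. A wider range than that of F5H was found for 3.85% of the unigenes tested. For CAD the fold between the highest and the lowest library was 1.33.

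**Figure D1:**
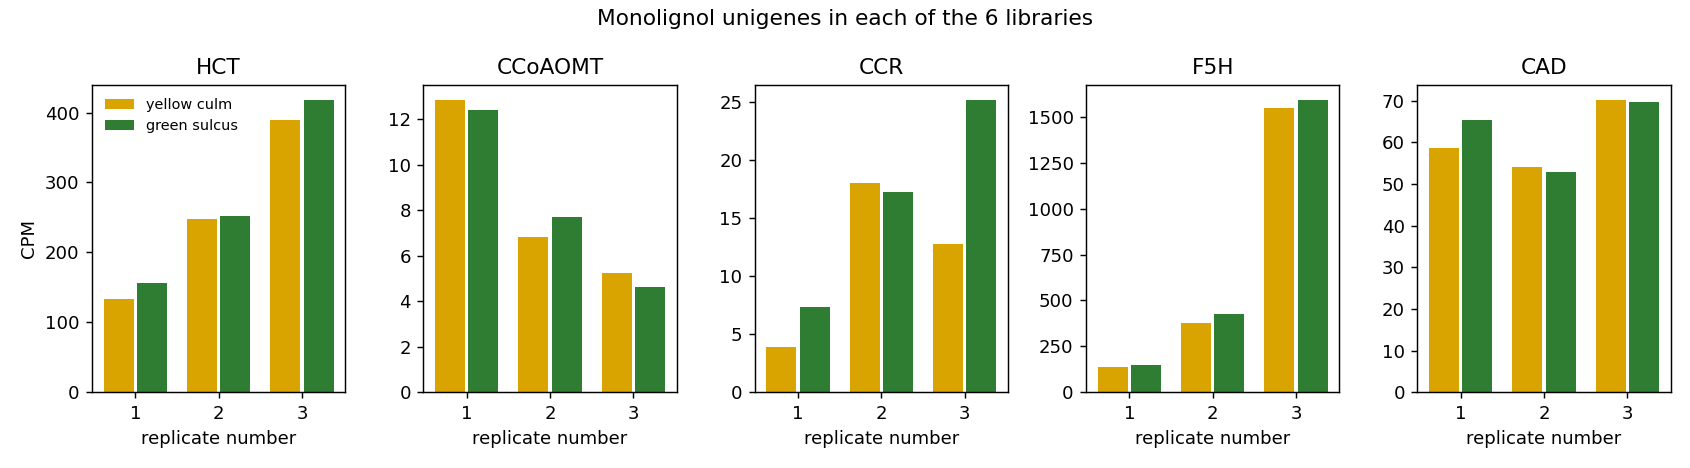
Level of each monolignol unigene in CPM (vertical axis, from 0, with its own scale in each panel) in the yellow culm library (left bar) and the green sulcus library (right bar) of each replicate number. Each bar is 1 library. F5H stood at 1547 and 1595 CPM in culm and sulcus replicate 3, above 4 other libraries between 139 and 428 CPM, while CAD stayed between 52.8 and 70.25 CPM in all 6.

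HCT (Cluster-4806.26691, shikimate O-hydroxycinnamoyltransferase) had 133, 248 and 389 CPM in culm replicates 1, 2 and 3, against 156, 252 and 419 CPM in sulcus replicates 1, 2 and 3. The order of the 3 numbers was the same in both tissues, and the ranges of culm and sulcus overlapped. Of its 6 deposited counts, 2 were not whole numbers, so some reads could have been divided with similar unigenes. The fractions were small, with counts of 8765.01 in culm replicate 3 and 4891.01 in sulcus replicate 2.

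The methyltransferase CCoAOMT (Cluster-4806.30654) had 12.9, 6.82 and 5.24 CPM in culm replicates 1, 2 and 3, from counts of 243, 136 and 118. In sulcus replicates 1, 2 and 3 it had 12.4, 7.72 and 4.65 CPM, from counts of 204, 150 and 86. Replicate 1 was the highest and replicate 3 the lowest in either tissue, the reverse of HCT.

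CCR (Cluster-4806.5663, cinnamoyl-CoA reductase) had 3.92, 18.1 and 12.8 CPM in culm replicates 1, 2 and 3, from counts of 74, 360 and 287. In sulcus replicates 1, 2 and 3 it had 7.31, 17.2 and 25.2 CPM, from counts of 120, 335 and 467. Replicate 1 was the lowest in either tissue, but the highest was replicate 2 in culm and replicate 3 in sulcus. CCR was thus the only member whose order of the numbers differed between the tissues.

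For F5H (Cluster-4806.19849, ferulate 5-hydroxylase), the culm replicates 1, 2 and 3 held 139, 379 and 1547 CPM, against 149, 428 and 1595 CPM in sulcus replicates 1, 2 and 3. The replicate 3 libraries stood apart in both tissues, 11.1-fold above replicate 1 in culm and 10.7-fold above it in sulcus. One of its 6 deposited counts was not a whole number, 34805.98 in culm replicate 3.

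CAD (Cluster-4806.9308, cinnamyl-alcohol dehydrogenase), which makes the alcohols at the end of the route, had 58.5, 54.0 and 70.25 CPM in culm replicates 1, 2 and 3. In sulcus replicates 1, 2 and 3 it had 65.3, 52.8 and 69.6 CPM. The tissues overlapped, and the coefficient of variation was 13.8% among culm libraries and 14.0% among sulcus libraries, against 109% and 106% for F5H.

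The differences between replicate numbers were tested across all unigenes with edgeR's quasi-likelihood test, with tissue as a covariate and Benjamini-Hochberg adjustment over all 31936 unigenes. In this test the culm and the sulcus library of a number serve as repeats once the mean tissue difference is removed. The p thus measures the difference between numbers against how far the pairs disagree on the tissue difference. It does not measure that difference against other samples of the same plant. Of all unigenes tested, 30.3% differed among the 3 numbers at an adjusted p under 0.05, and 4 of the 5 monolignol unigenes did. The adjusted p from edgeR was 3.61e-06 for F5H, 0.000351 for HCT, 0.00187 for CCoAOMT and 0.00361 for CCR. For CAD it was 0.185.

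F5H was 10.6-fold higher in number 3 than in number 1, a log2 difference of 3.41 (standard error 0.16, 95% interval 3.05 to 3.77, adjusted p = 2.26e-06 from edgeR). A difference of this size or more, in either direction, was found for few unigenes, since 98.1% of those tested differed by less. HCT was 2.73-fold higher, a log2 difference of 1.45 (standard error 0.14, adjusted p = 0.000141 from edgeR). CCR was 3.26-fold higher, a log2 difference of 1.71 (standard error 0.29, adjusted p = 0.00278 from edgeR). CCoAOMT went the other way, with a log2 difference of −1.39 (standard error 0.19, adjusted p = 0.000873 from edgeR), which is 0.381 times the level of number 1.

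A unigene counted as called when its log2 difference passed 1 in size and its adjusted p was under 0.05. By this rule there were 3 members called higher and 1 called lower in number 3 than in number 1. Among all unigenes tested, 6.17% were called higher and 7.98% lower. The median log2 difference was 1.45 over the 5 members and 0.015 over all unigenes. The members were chosen with earlier results of these data known. Setting them beside all unigenes, here and elsewhere, is thus a description and no test of the 5 as a set. CAD had a log2 difference of 0.14 (standard error 0.13, 95% interval −0.15 to 0.43), so the data allow a fold of up to 1.34 for it.

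Libraries with number 2 divided the members further. Against number 1, CCR and F5H were called higher, with log2 differences of 1.76 (adjusted p = 0.00473 from edgeR) and 1.51 (adjusted p = 0.000305 from edgeR), where 2.21% of all unigenes were called higher. HCT was higher by a log2 difference of 0.83 and CCoAOMT lower at −0.77. Their adjusted p from edgeR was 0.00564 and 0.0256, so 4 members passed 0.05 at any fold, as 13.3% of all unigenes did, but these 2 lay inside the fold limit. Neither passed in every alternative. Without culm replicate 2 the adjusted p from edgeR was 0.0763 for HCT and 0.219 for CCoAOMT, and CCoAOMT also missed 0.05 without sulcus replicate 2 (0.138) and with DESeq2 (0.0683).

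Between numbers 3 and 2, F5H was the only member called, with a log2 difference of 1.90 (standard error 0.15, adjusted p = 9.76e-05 from edgeR), where 5.46% of all unigenes were called higher. HCT followed with 0.62 (adjusted p = 0.0145 from edgeR), again inside the fold limit, and 21.5% of all unigenes had an adjusted p under 0.05. CCoAOMT had a log2 difference of −0.62 (adjusted p = 0.0503 from edgeR) and CAD one of 0.32 (adjusted p = 0.111 from edgeR). These 3 members lay near the threshold. HCT missed it in edgeR without sulcus replicate 2 (adjusted p = 0.132), sulcus replicate 3 (0.103) or culm replicate 3 (0.0723). CCoAOMT passed it with RLE size factors (adjusted p = 0.0429 from edgeR), limma voom (0.0443), no tissue term (0.0484) or a minimum count of 30 (0.048), and without replicate 1 of culm (0.0165) or of sulcus (0.017). CAD passed it with library totals only (adjusted p = 0.0467 from edgeR). CCR had −0.058 with a standard error of 0.27, and this hides opposite values in the tissues, since replicate 3 was at 0.706 times replicate 2 in culm and at 1.46 times replicate 2 in sulcus.

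**Figure D2:**
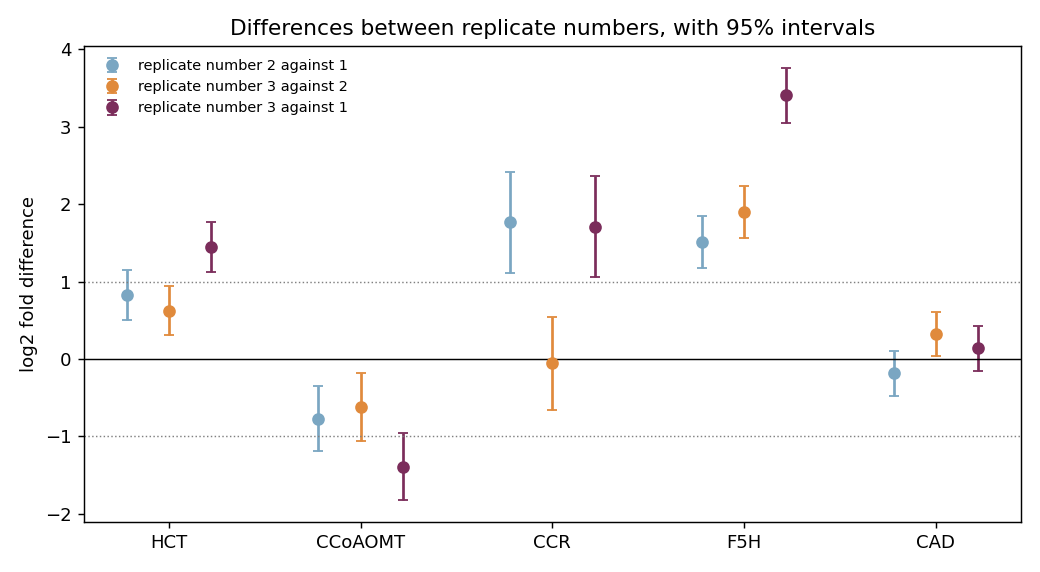
Log2 fold differences between replicate numbers (vertical axis) for the 5 monolignol unigenes, as edgeR estimates with 95% intervals. For each unigene the points are number 2 over 1, 3 over 2 and 3 over 1 from left to right, and dotted lines mark the fold limit of 1. F5H reached 3.41 for number 3 over 1, CCoAOMT −1.39, and the 3 intervals of CAD lay between −0.47 and 0.61.

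**Figure D3:**
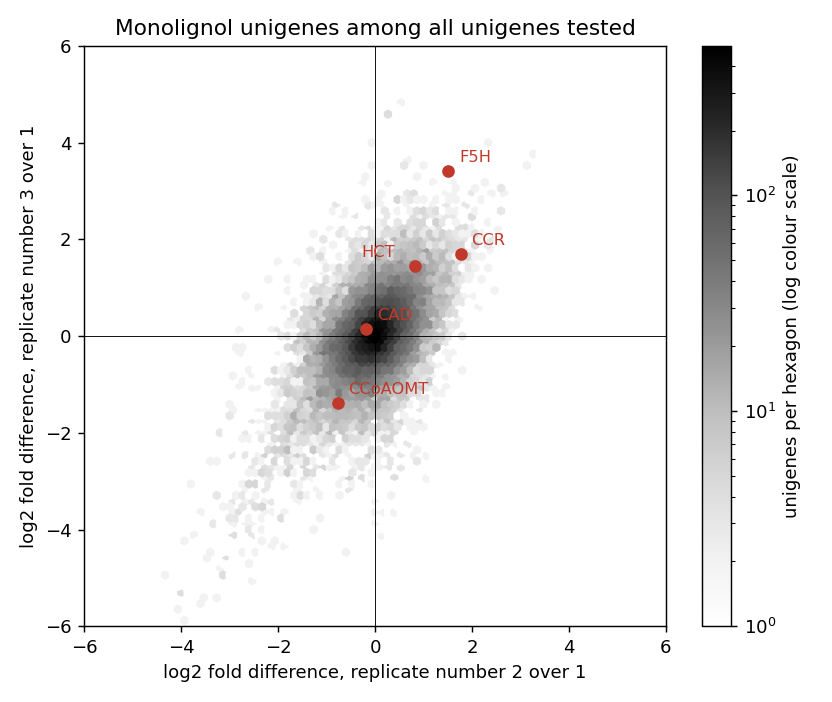
Log2 fold differences of all 31936 unigenes tested, with number 2 over 1 on the horizontal and number 3 over 1 on the vertical axis. Gray hexagons count unigenes on a log color scale, red points are the 5 monolignol unigenes, and 135 unigenes outside −6 to 6 are not drawn. F5H lies at the thin edge of the cloud at 1.51 and 3.41, while CAD lies in its dense center at −0.18 and 0.14.

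The ratio of 2 members within a library does not depend on scaling to the library total. In culm replicate 3 the ratio of F5H counts to HCT counts was 3.80 times the ratio in culm replicate 1, and in sulcus replicate 3 it was 3.97 times that in sulcus replicate 1. For replicate 2 the same ratio was 1.46 times that of replicate 1 in culm and 1.77 times in sulcus. For CCoAOMT over HCT the ratio in replicate 3 was 0.139 times that in replicate 1, in culm as in sulcus, and in replicate 2 it was 0.283 times in culm and 0.384 times in sulcus. The tissues were thus closer in replicate 3 than in replicate 2 for both ratios. CCR over HCT stood at 1.11 times in culm and 1.28 times in sulcus for replicate 3, and at 2.46 and 1.46 times in culm and sulcus for replicate 2. The count ratio of CAD to F5H in replicate 3 was 0.108 times that in replicate 1 in culm and 0.0999 times in sulcus.

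As a description of the same profiles, each unigene's log2 CPM was centered on its mean over the 6 libraries, and likeness was taken as the root mean square difference between centered profiles. Same-numbered libraries are not independent, so no correlation is given. CCR and HCT were the most alike of the members, at 0.50 on the log2 scale, and CCoAOMT and F5H the least alike, at 1.96. This likeness was not particular to the pair, since 5793 unigenes were nearer to HCT than CCR was, and 438 were nearer to CCR than HCT was. Few unigenes lay near F5H, with 6 within 0.25 of it, or near CCR, with 8. HCT had 399 unigenes and CCoAOMT 357 within that distance. CAD had 8500, or 26.6% of those tested. The distance is not scaled to the range of a profile. Profiles with a wide range thus tend to have few neighbors and flat ones many, so these counts do not measure how rare a pattern is.

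The unigene nearest in profile was Cluster-4806.32090 for F5H, at 0.14, and Cluster-4806.21400 for HCT, at 0.052. For CCR it was Cluster-4806.30, at 0.12, for CCoAOMT Cluster-4806.24224, at 0.085, and for CAD Cluster-4806.34748, at 0.028. These 5 unigenes have no name in the sources used here. Among other phenylpropanoid unigenes, the nearest to F5H and to HCT was PvPAL2, a phenylalanine ammonia-lyase of the entry into the route. Its distance was 1.19 from F5H and 0.40 from HCT, where the median distance to all unigenes was 1.42 and 0.67. PvPAL1 was the nearest to CAD, at 0.23 with a median of 0.37. PvPAL3 was the nearest to CCR, at 0.55 with a median of 0.96. Each of these was picked as the nearest of 7 unigenes, so a distance below the median was likely in advance. The medians therefore do not show that these unigenes follow the members closely.

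Variation of the 5 unigenes lay mainly between replicate numbers. Of the sum of squares of log2 CPM, 99.8% lay between numbers for F5H, 98.6% for HCT, 98.3% for CCoAOMT, 92.2% for CAD and 81.8% for CCR. The median over all unigenes tested was 71.9%. Between culm and sulcus lay 0.148% for F5H, 0.916% for HCT, 0.0188% for CCoAOMT, 1.28% for CAD and 11.2% for CCR, where the median of all unigenes was 5.78%. CCR was the member with the largest share left over, 6.98%, which is the part in which the pairs disagree on the tissue difference. CAD was close to it with 6.56%, and the median over all unigenes was higher, 14.3%. The medians over all unigenes were not matched to the members in count. CAD varied little in total, with a sum of squares of 0.165, where F5H had 11.98.

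**Figure D4:**
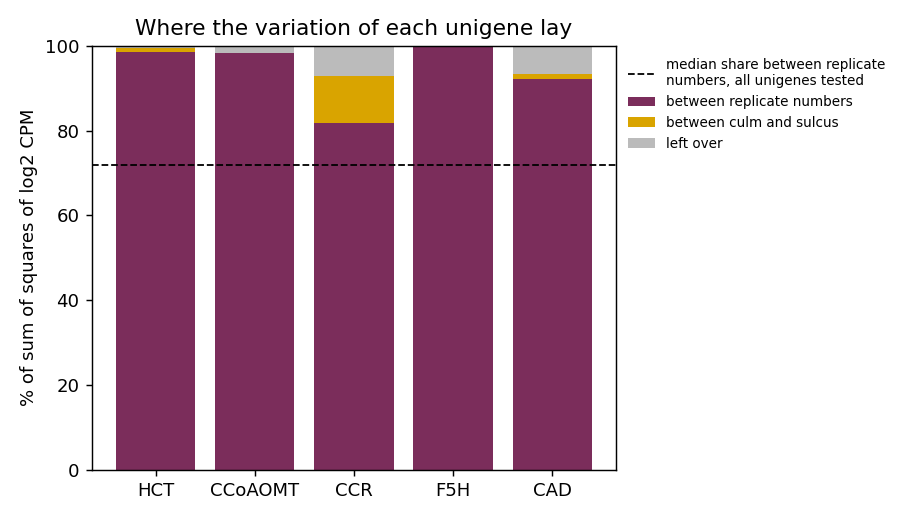
Shares of the sum of squares of log2 CPM over the 6 libraries, in percent (vertical axis), that lay between replicate numbers, between culm and sulcus, or were left over, for each monolignol unigene. The dashed line marks the median share between replicate numbers over all unigenes tested, 71.9%. All 5 bars pass it, and CCR has the largest part between tissues, 11.2%.

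The comparison of the study, yellow culm against green sulcus, asks which genes differ with the internode color. None of the 5 monolignol unigenes was called, and with tissue as the only term edgeR called 0% of all unigenes under the same rule. At an unadjusted p under 0.05 it gave 440 unigenes, or 1.38%, none of them a member. DESeq2 called 28 unigenes and limma voom 0. The study, with DESeq2 and the same thresholds, reported more differentially expressed genes than the 28 called here. Why the counts differ was not tested.

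Log2 fold changes of culm over sulcus were −0.10 for HCT (standard error 0.48), 0.0086 for CCoAOMT (standard error 0.47) and −0.50 for CCR (standard error 0.64). F5H had −0.099 (standard error 1.07) and CAD −0.042 (standard error 0.17), and the adjusted p from edgeR rounded to 1 for each of the 5. The median was −0.099 over the 5 members and 0.0059 over all unigenes. The 95% intervals were wide, from −2.66 to 2.46 for F5H. The 5 exact two-sided permutation tests on log2 CPM gave p = 0.6 for CCR, 0.7 for HCT and F5H and 1 for CCoAOMT and CAD, where 3 libraries against 3 cannot give a p under 0.1.

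The intervals narrowed once the replicate number entered as a block. The log2 fold change of F5H was then −0.11 (95% interval −0.37 to 0.16), so that a culm level between 0.772 and 1.12 times that of sulcus is within the interval. HCT had −0.11 (95% interval −0.37 to 0.14), CAD −0.036 (95% interval −0.27 to 0.20) and CCoAOMT 0.015 (95% interval −0.33 to 0.36). For these 4 members, a tissue difference of 2-fold in either direction lies outside the interval.

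CCR stood apart, with −0.57 in the blocked test (95% interval −1.09 to −0.056, unadjusted p = 0.0336 and adjusted p = 0.581 from edgeR), which is 0.671 times the sulcus level and did not pass the adjustment. An unadjusted p under 0.05 was reached by 7.82% of all unigenes in this test. In it 41 unigenes were called, or 0.128% of all, none of them a member. Without the libraries of number 1, 2 or 3, the blocked test called 112, 5 or 100 unigenes. CCR had −0.44 without number 1 (adjusted p = 0.389 from edgeR) and −0.99 without number 2 (adjusted p = 0.346). Without the libraries of number 3 it had −0.33 (adjusted p = 0.897 from edgeR).

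Within same-numbered pairs, the level of F5H in culm was 0.930, 0.885 and 0.970 times that in sulcus for replicates 1, 2 and 3, lower in 3 of 3 pairs. The exact (Clopper-Pearson) 95% intervals of these 3 ratios, which cover counting error only, excluded 1. With scaling by the TMM method, which edgeR uses, all 3 log2 ratios of F5H stayed below 0, and that of the replicate 2 pair was −0.091 in place of −0.18. HCT in culm was at 0.853, 0.987 and 0.930 times the sulcus level, below 1 in 3 of 3 pairs. With TMM scaling, however, the log2 ratio of HCT in the replicate 2 pair was 0.067. The counting intervals of HCT excluded 1 in pairs 1 and 3 (0.807 to 0.901 and 0.902 to 0.959) and included it in pair 2. The within-pair ratios compare with folds of 10.6 and 2.73 between numbers 3 and 1 for F5H and HCT.

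CAD had ratios of culm to sulcus of 0.897, 1.02 and 1.01 in pairs 1, 2 and 3, and CCoAOMT had 1.04, 0.884 and 1.13. The counting interval of CAD lay below 1 in pair 1 (0.824 to 0.976) and included 1 in pairs 2 and 3. With TMM scaling the log2 ratio of CAD in pair 3 was −0.042 in place of 0.013, so no direction holds there. The counting intervals of CCoAOMT included 1 in all 3 pairs, and at its counts a tissue difference of this size was not detectable. CCR had ratios of 0.536 (interval 0.396 to 0.722), 1.05 (0.900 to 1.22) and 0.505 (0.435 to 0.587) in pairs 1, 2 and 3. The intervals lay below 1 in pairs 1 and 3 and included 1 in pair 2, but they cover counting error only, and with the spread between pairs the blocked edgeR test gave CCR an adjusted p of 0.581. Of all unigenes tested, 87.8% had a smaller absolute log2 ratio than CCR in the pair of replicate 1 and 93.9% in that of replicate 3, but 18.8% in that of replicate 2. The 3 ratios of F5H were smaller in absolute log2 than the median unigene's, which was 0.29, 0.22 and 0.21 in pairs 1, 2 and 3. That median was not matched to F5H in count, and ratios from low counts carry more counting error.

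**Figure D5:**
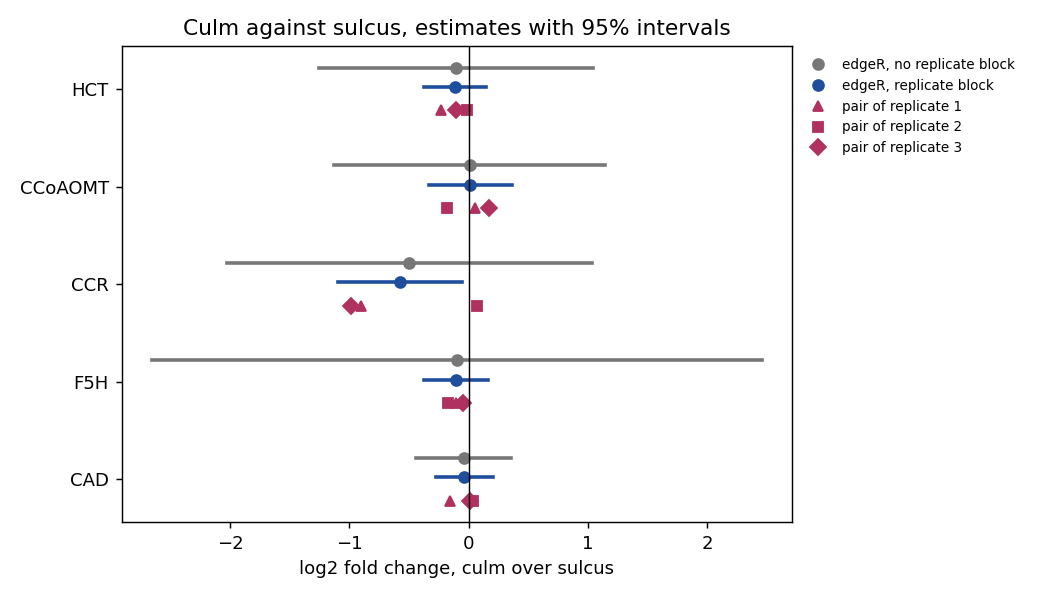
Log2 fold change of culm over sulcus (horizontal axis) for each monolignol unigene. Points with lines are edgeR estimates and 95% intervals, without (gray) and with (blue) replicate number in the model, and the red triangle, square and diamond are the ratios in the pairs of replicates 1, 2 and 3. The blocked interval of CCR, −1.09 to −0.056, is the only one that leaves out 0.

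Other phenylpropanoid unigenes of the study's list, 7 in number, include 3 phenylalanine ammonia-lyases, a C4H and a 4CL. The list was drawn up by the study on these samples. One entry named C3H carries another KEGG description, butyrate response factor 1. Of the 7, 3 differed among the replicate numbers at an adjusted p under 0.05 in edgeR, where 30.3% of all unigenes did. Between numbers 3 and 1, 0 of the 7 were called higher and 1 lower by edgeR, where 6.17% and 7.98% of all unigenes were. The median log2 difference was −0.024, with a range from −3.23 to 0.55. The 5 monolignol unigenes ranged from −1.39 to 3.41 in the same comparison. Between numbers 2 and 1, 1 of the 7 was called higher and 0 lower, where 705 and 1639 of all 31936 unigenes were. Between numbers 3 and 2, 0 were called higher and 1 lower, where 1743 and 1753 of all unigenes were. Between culm and sulcus, 0 of the 7 were called with or without the block, where 0.128% and 0% of all unigenes were. Without the block the median log2 fold change of the 7 was −0.092, with a range from −0.40 to 2.59. Of the 12 photosynthesis unigenes, 2 were called higher and 0 lower between numbers 3 and 1, against 6.17% and 7.98% of all unigenes. Their median log2 difference was 0.067. Their summed level moved with the number in opposite ways in the tissues, being highest in replicate 3 in culm and lowest in replicate 3 in sulcus, while F5H and HCT were highest in replicate 3 in both. Its part in the differences of the monolignol unigenes was not tested.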

How the data were processed

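Estimated counts per unigene were deposited by the authors, without normalization, from 150 bp paired-end reads assembled with Trinity and grouped with Corset. No source used here names the counting tool. Between 10.7% and 12.5% of values per library were not whole. After rounding, edgeR 4.0.16 was run in R 4.3.3 (filterByExpr on tissue with a minimum count of 10, TMM factors between 0.949 and 1.05), and with limma 3.58.1 and DESeq2 1.42.0 as alternatives. CPM are counts over library totals. For the sums of squares, profiles and permutation tests (scipy 1.17.1), 0.01 was added to each CPM. The standard error is the absolute log2 fold change over the square root of F. The tests were tried on simulated data.

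Replicate numbers were taken to pair the libraries, because across unigenes the deviations from the mean of each tissue correlated at 0.713, 0.620 and 0.798 for same-numbered libraries and between −0.632 and −0.0750 for others. The pairing comes from the values. Deviations from a tissue mean cancel within that tissue, so positive values for same-numbered libraries push the other values down. The negative values are therefore no separate support for the pairing. The members and lists were chosen with earlier results of these data known. Named unigenes were the 5 members, the unigene nearest to each in profile, and the nearest of the other phenylpropanoid list. One unigene of that list is counted but not reported here. Alternatives were other scalings, tests and filters, the block, and leaving out each library. Metabolites and qRT-PCR were not analysed here.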

Additional observations from a re-analysis of the deposited data

How the results depend on the processing

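For F5H, HCT, CCoAOMT and CCR the call of number 3 against 1 held in 14 of 14 alternatives. Culm against sulcus called no member in any of 18. Directions of culm against sulcus without the block changed when 1 library was left out, which by construction unbalances the numbers. HCT ranged from −0.48 to 0.32 (0.32 without sulcus replicate 3, 0.21 without culm replicate 1), and F5H from −1.43 to 1.21 (1.21 without sulcus replicate 3, 0.38 without culm replicate 1, 0.15 without culm replicate 2). CCoAOMT ranged from −0.44 to 0.44 (−0.44 without culm replicate 1, −0.29 without sulcus replicate 3, −0.048 without sulcus replicate 2), CAD from −0.16 to 0.031 (0.031 without sulcus replicate 3, 0.0025 without sulcus replicate 1), and CCR from −1.05 to −0.075. CCoAOMT also reversed without a low-count filter (−0.0028), with a minimum count of 30 (−0.00067) and with the replicate block without number 3 (−0.040), and CAD with the replicate block without number 1 (0.039). CCR between numbers 3 and 2 reversed without the tissue term (0.041), with library totals only (0.013) and with limma voom (0.014), and ranged from −0.62 to 0.52 with 1 library left out. The cause was not tested.

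Unigenes called between culm and sulcus were 22 higher and 19 lower (41) with the replicate block, 10 and 18 (28) with DESeq2, and 0 and 2 (2) without a filter. Added after seeing the data, DESeq2 with the replicate block gave 63 and 31 (94), and the block without number 1, 2 or 3 gave 57 and 55 (112), 1 and 4 (5), or 63 and 37 (100). With 1 library left out the count without the block stayed at 0. Unigenes that differed among numbers then ranged from 6263 to 13206. For 2 against 1 the calls ranged from 1093 to 3376 (270 to 1157 higher, 823 to 2219 lower), and for 3 against 2 from 2022 to 4603 (910 to 2419 higher, 1017 to 2184 lower). With TMM scaling the share of CAD between numbers was 81.1%. CCR and CCoAOMT had the lowest counts, from 74 and 86, and the widest counting intervals.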
